A study of Mus musculus with 96 samples.

Results

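Cell division transcripts of cultured bone-forming cells were measured in 42 mouse strains through 40 named genes: 23 that act in mitosis and 17 that act in DNA replication and the G1/S transition. The genes were chosen by name for their known role, with earlier results of these data known, and their deposited transcript values were summed per gene. Each of the 40 matched 1 gene of the table, and all passed the filter on low values, among 15676 genes tested of 37945 summed. E2f8 passed it narrowly, with 9 of 95 libraries at 0.5 or above on the abundance scale used here.

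Total RNA was sequenced from osteoblast cultures of 42 Collaborative Cross strains, a panel of recombinant inbred mice descended from several founder strains. Calvarial (skull cap) cells of pups aged 3 to 5 days were grown for 48 h and then kept for 10 days in medium that lets them lay down mineral. All groups shared this protocol, and the labels tell them apart by strain only; 2 libraries were made for 31 strains, 3 for 2 strains, 4 for 6 strains and only 1 for CC011, CC024 and CC035. The labels give no sex, litter or culture date and do not say whether libraries of a strain came from separate animals, so the p-values measure the spread between these libraries, which may be technical. Levels are scaled TPM, a relative abundance corrected for transcript length, so that levels of different genes can be compared. The depth of each library is unknown, because TPM does not keep it. Between 10783 and 12334 genes reached 1 TPM per library.

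Osteoblast markers were detected in every library, with 15 genes summing to 10751 scaled TPM or more, and macrophage markers were present too, with 15 genes summing to between 39.1 and 5844. In bulk RNA, fewer cells of a type and less RNA per cell cannot be told apart, and neither can more dividing cells and more transcript per dividing cell.

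Cells that enter division first load replicative helicases on DNA, then copy the genome in S phase, and then assemble a spindle that separates the copies. Transcripts of the first steps are switched on in late G1 by E2F factors, and transcripts of mitosis follow in G2 through the MuvB complex with B-Myb and FoxM1, which act at promoters with a CHR element and CCAAT boxes. Osteoblast precursors divide, and the cells largely leave the cell cycle as they lay down and mineralize bone matrix.

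Whether promoter sequence goes with the way members varied was not tested. As background, the promoters of the 4 most abundant mitotic and the 4 most abundant replication members with an entry are shown. They are the 150 bases before the transcript start, from RefSeq (GRCm38.p6), read 5′ to 3′ along the gene. Capitals mark the letters of a CHR (TTTGAA) or a CCAAT box on either strand, so that ATTGG marks a CCAAT box read on the other strand. They also mark an E2F site, spelled TTTNNCGC with each N a C or a G, on either strand. The mitotic promoters were these.
Cdk1 (chr10:69352913-69353062, minus strand): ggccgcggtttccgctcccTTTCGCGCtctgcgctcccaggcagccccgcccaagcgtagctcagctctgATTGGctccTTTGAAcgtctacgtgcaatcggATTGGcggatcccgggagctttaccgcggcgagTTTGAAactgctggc
Top2a (chr11:99024190-99024339, minus strand): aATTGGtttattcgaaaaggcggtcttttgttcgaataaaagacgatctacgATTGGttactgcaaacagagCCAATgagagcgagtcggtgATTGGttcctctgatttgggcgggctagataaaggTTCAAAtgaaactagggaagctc
Prc1 (chr7:80294326-80294475, plus strand): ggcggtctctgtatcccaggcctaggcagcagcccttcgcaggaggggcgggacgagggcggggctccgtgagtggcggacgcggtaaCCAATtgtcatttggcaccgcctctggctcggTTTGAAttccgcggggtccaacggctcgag
Ccnb1 (chr13:100786487-100786636, minus strand): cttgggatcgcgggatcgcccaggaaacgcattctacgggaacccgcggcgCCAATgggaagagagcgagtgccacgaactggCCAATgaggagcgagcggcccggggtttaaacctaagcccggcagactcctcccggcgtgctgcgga
The replication promoters were these.
Pcna (chr2:132253181-132253330, minus strand): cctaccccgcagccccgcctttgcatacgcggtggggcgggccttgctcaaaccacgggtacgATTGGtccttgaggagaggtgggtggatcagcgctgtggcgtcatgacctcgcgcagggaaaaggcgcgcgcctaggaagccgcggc
Mcm7 (chr5:138171267-138171416, minus strand): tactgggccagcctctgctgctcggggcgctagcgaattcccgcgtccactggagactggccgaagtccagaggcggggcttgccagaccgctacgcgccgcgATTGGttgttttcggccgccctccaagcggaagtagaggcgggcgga
Rrm1 (chr7:102441545-102441694, plus strand): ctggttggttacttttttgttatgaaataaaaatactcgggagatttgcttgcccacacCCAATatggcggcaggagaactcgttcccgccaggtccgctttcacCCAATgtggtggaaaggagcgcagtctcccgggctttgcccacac
Mcm6 (chr1:128359706-128359855, minus strand): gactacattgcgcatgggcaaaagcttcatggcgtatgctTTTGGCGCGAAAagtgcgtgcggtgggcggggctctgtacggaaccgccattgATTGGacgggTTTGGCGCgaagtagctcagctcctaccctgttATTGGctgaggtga
In the upstream Mcm6 stretch, 2 E2F spellings on opposite strands overlap. Ccnb1 had 2 CCAAT boxes and no CHR in the window, and of the 4 replication promoters none had a CHR.

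Over windows from 250 bases before to 50 after the start, an entry was matched for 33 members. A CHR was found in 14 of 19 mitotic promoters (73.7%), in 2 of 14 replication promoters (E2f8 and Mcm2) and in 20.2% of 27025 genes. A CCAAT box was found in 17 of 19 mitotic (89.5%) and 9 of 14 replication promoters (64.3%), and in 41.1% of all genes. E2F letters were found in 1 of 19 mitotic promoters (Cdk1) and in 6 of 14 replication promoters (42.9%: Cdc6, Cdt1, Mcm3, Mcm5, Mcm6 and Mcm7), against 2.61% of all genes. These are letter matches in a fixed window and not measured binding.

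Every member was detected at a modest level. Among the cyclins and kinase of G2 and M phase, Cdk1, the kinase that drives entry into mitosis, had a median of 12.2 scaled TPM over the 42 strain means, and its cyclin partners Ccna2, Ccnb1 and Ccnb2 had 5.28, 4.77 and 4.24. Top2a, the topoisomerase that untangles DNA before chromosomes part, had 9.85, and Mki67, which coats mitotic chromosomes, had 2.75. The mitotic kinases and checkpoint genes (Aurka, Aurkb, Plk1, Bub1, Bub1b, Ttk, Birc5) ran from 0.913 to 4.07. Cdc20 and Ube2c, which serve the anaphase-promoting complex, had 3.93 and 3.57. The 8 motor, spindle and kinetochore genes (Kif11, Kif20a, Kif23, Tpx2, Nusap1, Prc1, Cenpe, Cenpf) ran from 1.21 to 5.73. Replication members reached higher levels. Pcna, the sliding clamp of DNA polymerase, had 38.5, Mcm7, a subunit of the replicative helicase, 11.8, and Rrm1, the large subunit of ribonucleotide reductase, 11.0. The lowest was E2f8, an atypical repressor E2F, at 0.239.

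Mitotic members differed far more between libraries than replication members. Over 95 libraries their summed level ran from 31.7 to 521 scaled TPM with a median of 80.7, and that of the replication members from 82.5 to 229 with a median of 114. The ratio of the highest to the lowest library was 10.7 to 36.0 for mitotic members, with a median of 17.4, and 2.43 to 25.7 for replication members, with a median of 5.17. It was largest in Kif11, the motor that pushes spindle poles apart (0.461 to 16.6 scaled TPM), in Cenpf, a kinetochore protein (0.283 to 9.53), and in Birc5, or survivin (0.949 to 31.4). It was smallest in Mcm7 (7.32 to 17.8) and Pcna (25.9 to 65.5). The highest library was CC023 replicate 2 for most mitotic members, and the lowest was CC051 replicate 1.

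Libraries of the same strain could lie far apart. The mean of the 23 mitotic members, on the scale log2(scaled TPM + 0.5) used for all log2 values, was 0.69 in the lowest library, 1.73 in the median library and 4.25 in the highest. Each sample title carries a number, and no source used here says what it stands for. The 9 libraries with the highest mean comprised all 6 with titles from Farber_165 to Farber_179, called block A here, at 3.64 to 4.25, and all 3 with a title number of 20 or lower, called block B, at 2.99 to 3.66. The tenth stood at 2.77. The remaining libraries ran from there down to 0.69.

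**Figure D1:**
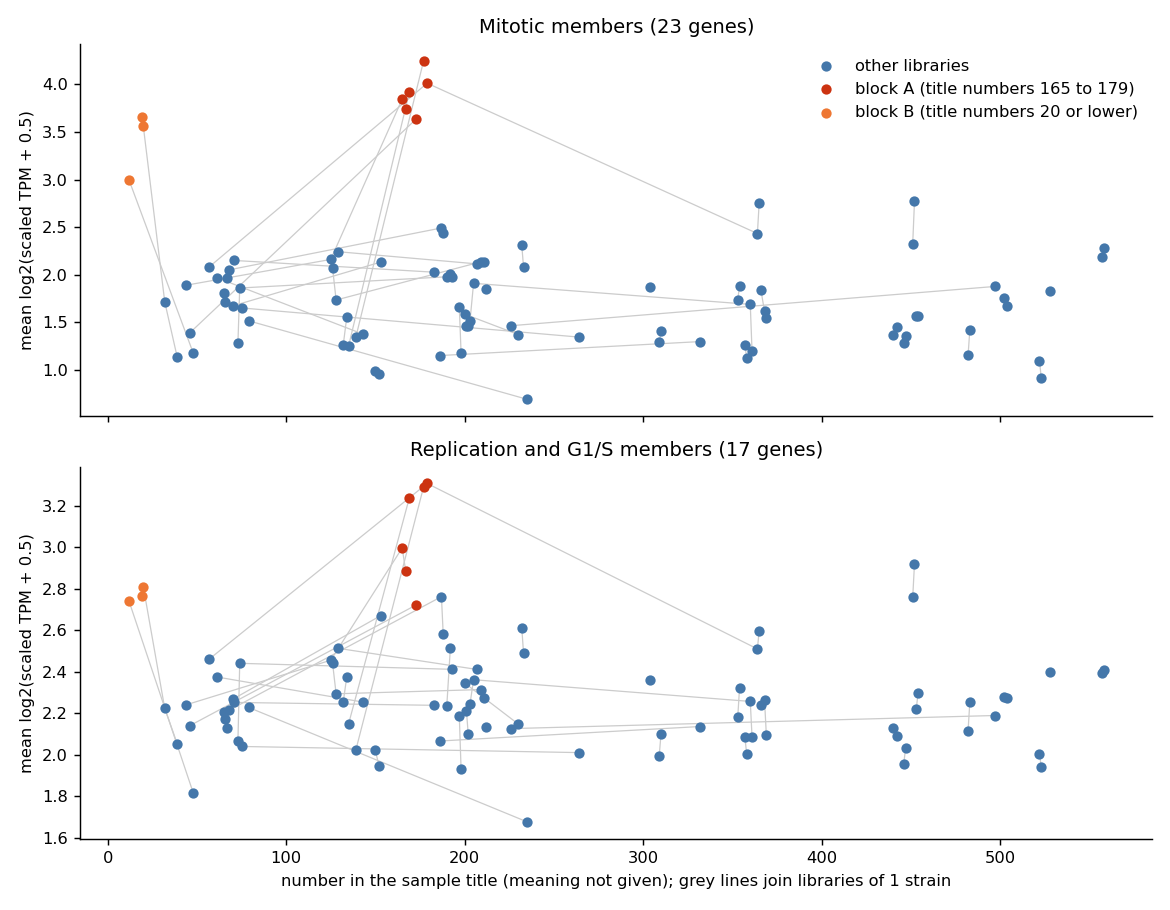
Mean log2(scaled TPM + 0.5) of the 23 mitotic members (top) and the 17 replication members (bottom) in each of 95 libraries, against the number in the sample title; grey lines join libraries of 1 strain. The 6 libraries of block A (red) and the 3 of block B (orange) hold the 9 highest mitotic means, and other libraries of the same strains lie far below them.

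The 6 block A libraries came from 5 strains that also had other libraries, 8 in all. The grouping into blocks was made after the values were seen, so its differences are a description with no test. Mki67 was 13.3 and 13.6 scaled TPM in the CC015 libraries of block A against 3.32 and 4.31 in the other CC015 libraries. It was 13.2 against 2.19 in CC016, 23.5 against 1.90 in CC023, 16.0 against 2.15 in CC028, and 14.4 against 3.15, 4.56 and 5.30 in CC038. In all 5 strains the values did not overlap.

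The other mitotic members showed the same separation. Top2a was 37.0 to 56.8 in the 6 libraries and 5.33 to 20.8 in the 8 others, and Cdk1 was 47.1 to 71.5 against 8.25 to 25.2. Ccnb1 was 18.7 to 28.9 against 2.80 to 10.3, and Ccna2 was 22.5 to 38.5 against 3.29 to 10.4. Plk1, the polo kinase of spindle assembly, was 3.81 to 5.90 against 0.571 to 2.61. No value of these genes in the 8 other libraries reached the lowest of the 6.

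All 23 mitotic members and 14 of 17 replication members were above every other library of the strain in 5 of 5 strains, and none was below, where 10.7% of all tested genes were above and 8.82% below. The median log2 difference, averaged over the 5 strains, was 2.24 for mitotic members, 0.90 for replication members and -0.03 for all tested genes. Scaling bears on the replication count: on the deposited TPM with no further scaling, where the median of all genes moved to -0.18, 23 mitotic but only 7 replication members were above in 5 of 5 strains, and the replication median was 0.71.

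**Figure D2:**
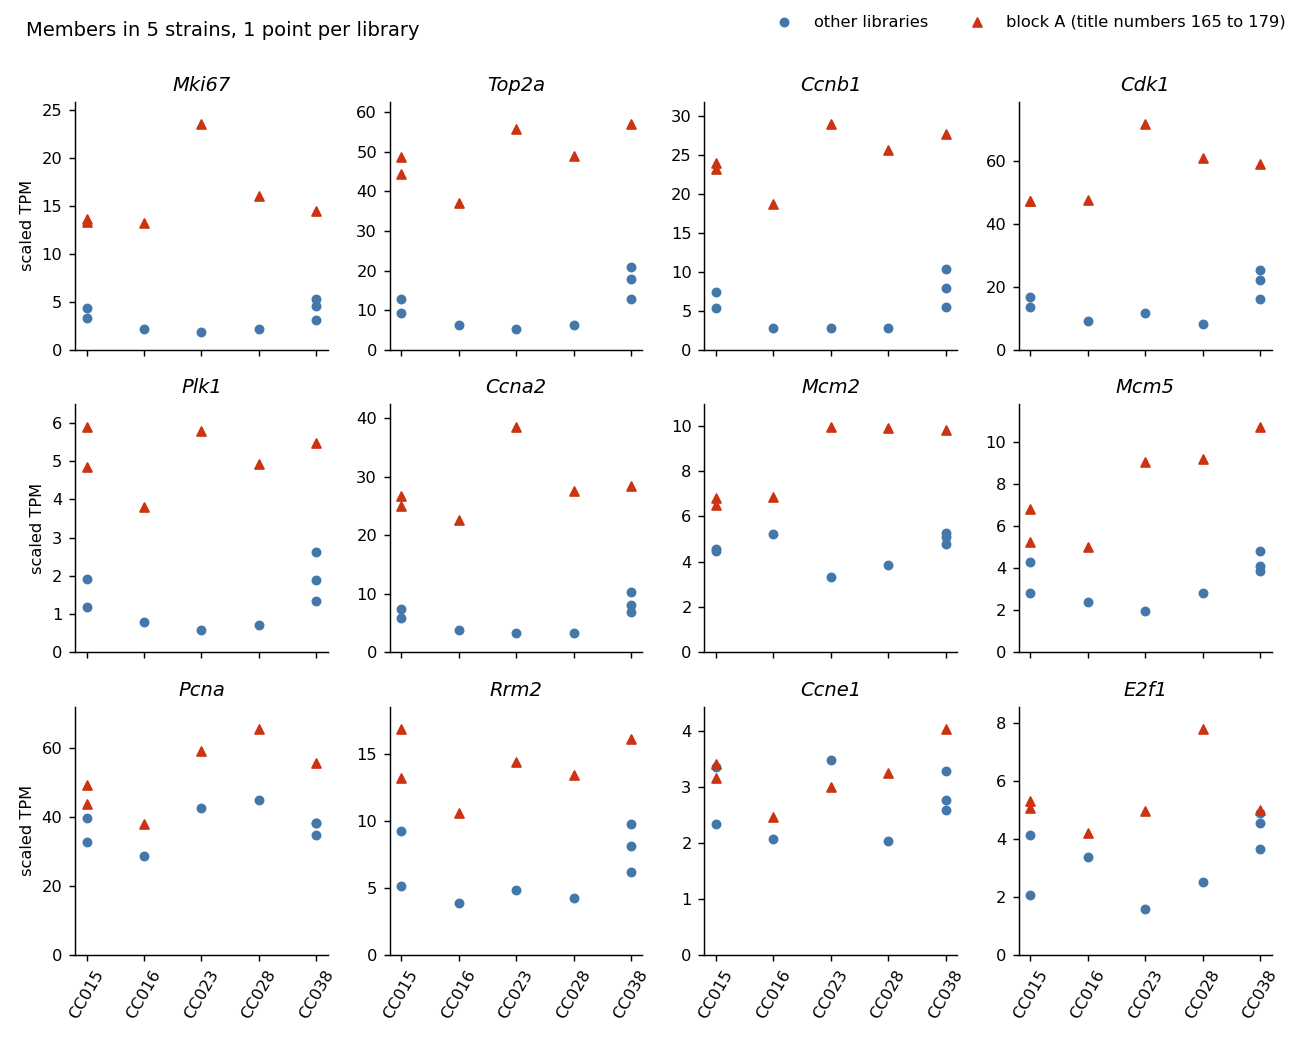
Scaled TPM of 12 members in the 5 strains with a block A library, 1 point per library. In the 6 mitotic members (top row, and Plk1 and Ccna2) triangles (block A) lie above all circles, Mki67 at 13.2 to 23.5 against 1.90 to 5.30, while Ccne1 overlaps.

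Replication members separated less widely. Rrm2, the regulated small subunit of ribonucleotide reductase, was 10.6 to 16.8 in the 6 libraries against 3.85 to 9.77 in the 8 others. Mcm2 was 6.52 to 9.95 against 3.31 to 5.28, and Mcm5 was 5.00 to 10.7 against 1.98 to 4.80. These ranges did not overlap. Pcna was 38.1 to 65.5 against 28.7 to 44.9, and E2f1, an activator of the G1/S program, was 4.21 to 7.80 against 1.59 to 4.92, so that they separated only within each strain. Ccne1, the cyclin of S-phase entry, was 2.47 to 4.03 against 2.03 to 3.47, and in CC023 it was lower in the block A library (2.99) than in the other (3.47). Cdt1, a licensing factor that is degraded once replication starts, and Mcm4 were the other members without the separation.

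Marker sums of other cell types differed in part between these libraries, and their part in the differences was not tested. Over all tested genes, 10.7% were above and 8.82% below in all 5 strains. The 15 macrophage markers summed to 137 to 1006 scaled TPM in the 6 libraries and to 286 to 2001 in the 8 others, with 2 of 15 below in all 5 strains. The 8 smooth muscle and pericyte markers summed to 917 to 2119 against 495 to 1227. Of these, 2 of 8 were above, Acta2 (smooth muscle actin, by 1.13 log2) and Tagln, and the median difference of the list was 0.45. The 15 osteoblast markers summed to 19838 to 29146 against 13151 to 27696. Of these, 3 of 15 were above, Alpl (the alkaline phosphatase of mineralizing cells, by 1.00), Ibsp and Ifitm5. The median difference of the osteoblast list was only 0.21 log2, and some of its genes, such as Runx2 and Col1a1, were lower on average. The 6 adipocyte markers summed to 10.8 to 25.1 against 13.2 to 252, with 1 of 6 below and a median difference of -0.86 log2, where the macrophage median was -0.84. The strains were not alike in the macrophage markers, most of which were higher in the block A library of CC028. Cd68 differed by -1.85, -1.83 and -1.70 log2 in CC015, CC016 and CC038, by -0.01 in CC023 and by 0.73 in CC028. No gene of any marker list was at 0 in all libraries.

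The 3 block B libraries were of CC012 and CC041. Top2a was 30.2 scaled TPM in the block B library of CC012 and 5.62 in its other library. It was 41.0 and 32.6 in the block B libraries of CC041 and 9.29 and 4.88 in its other libraries. Within CC041 the 4 libraries thus formed 2 pairs that did not overlap. Block B was set after the mitotic means, which include Top2a, were seen, so this is only a description. No share of all genes was computed for block B.

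Strain explained less of the variation of these genes than of most genes. By limma's moderated F test over the 39 strains with 2 or more libraries, with Benjamini-Hochberg adjustment over all tested genes, 22 of 40 members differed between strains (55%), where 81.6% of all tested genes did. The count was 10 of 23 mitotic and 12 of 17 replication members. The share of log2 variance between strains (an intraclass correlation, 1 when libraries of a strain are alike and near 0 or negative when they are no more alike than libraries of other strains) had a median of 0.188 for mitotic members, 0.254 for replication members and 0.472 for all tested genes. The median within-strain SD was 0.69, 0.33 and 0.20 log2. The range between strain means was 2.01 for the median mitotic member and 1.03 for the median gene.

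By role, the test was passed by 3 of 4 G2/M cyclin and kinase genes (Ccnb1, Ccnb2 and Cdk1), 1 of 7 mitotic kinase and checkpoint genes (Plk1) and 1 of 2 genes of the anaphase-promoting complex (Cdc20). It was passed by 4 of 8 motor, spindle and kinetochore genes (Kif23, Prc1, Cenpe and Cenpf) and by Mki67 but not Top2a. Among replication members it was passed by 7 of 9 licensing and helicase genes (not Cdc6 or Mcm2), by Pcna, by Rrm1 and Rrm2 but not Tyms, and by Ccne1 and E2f1 but not Ccne2 or E2f8. Several of these calls were narrow. Adjusted p-values (limma) were 0.0418 for Cdk1, which became 0.0670 without CC015 replicate 2, and 0.0297 for Plk1, which became 0.0623 without CC015 replicate 3. Those of Ccna2 (0.0597) and Top2a (0.0942) became 0.0211 and 0.0308 without CC041 replicate 4. On the deposited TPM without further scaling 37 members were called, and with libraries weighted by their spread 40 were. The share of all genes called under these settings is not given, so these counts cannot be set beside a background.

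The number in the title separated the strains into 2 kinds. In 19 strains whose title numbers lie within 5 of each other (39 libraries), 39 of 40 members differed between strains (limma), beside 84.7% of all genes, with Cdt1 as the exception (adjusted p = 0.168). Their median share of variance was 0.811, beside 0.698 for all genes. Libraries of each of these strains also lie close in title number, so strain and title number cannot be told apart in this subset. In 20 strains with title numbers 20 or more apart, each with its lowest- and highest-numbered library, 0 of 40 members differed (limma), beside 41.3% of all genes. There 0 members had an unadjusted p under 0.05, the lowest adjusted p was 0.141 (Mcm6), and the median share of variance was -0.223, beside 0.355 for all genes.

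The low value among distant numbers rested in part on the 7 strains that hold a library of block A or B. Of these, CC038 entered the distant test with libraries outside block A. Without these 7 strains, 10 of 40 members differed in the other 13 (limma), 9 of them mitotic, beside 37.7% of all genes. The median share of variance was then 0.376, beside 0.419 for all genes. This alternative was chosen after the values were seen. What the title number stands for was not tested.

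**Figure D3:**
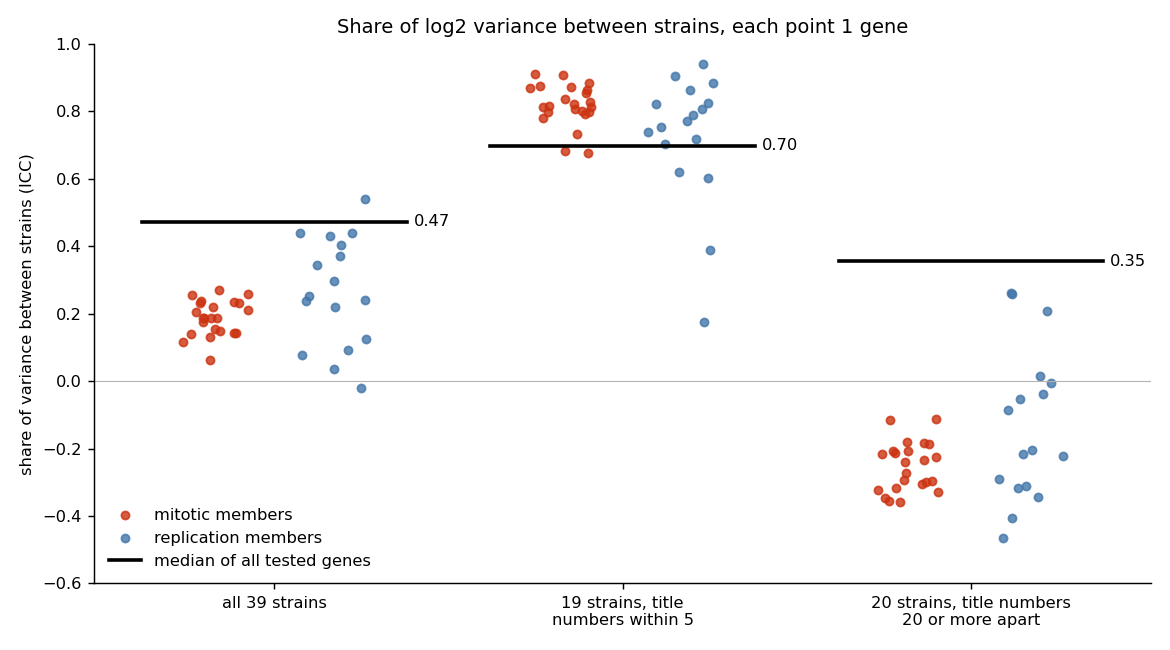
Share of log2 variance between strains for each mitotic (red) and replication (blue) member, over all 39 strains, 19 strains with close and 20 with distant title numbers; black bars give the median of all tested genes (0.47, 0.70 and 0.35). Members lie mostly above the bar among close numbers and below it among distant ones.

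Pairs of libraries were compared by strain and by title number. The mitotic mean of 2 libraries of a strain numbered within 5 of each other differed by a median of 0.108 log2 (31 pairs). Libraries of different strains numbered within 5 differed by 0.409, and libraries of a strain numbered 20 or more apart by 0.469 (38 pairs). Libraries of different strains numbered 20 or more apart differed by 0.552 (3982 pairs). The 4 pairs of a strain numbered between these limits differed by 1.90. All 4 were of CC041, and most set a block B library beside a later one, so they describe that strain and not a distance. For the replication mean, distant pairs of a strain differed by 0.311 and distant pairs of different strains by 0.242. Pairs share libraries and are not independent. Within a strain the range of the mitotic mean was at most 0.481 with close numbers and up to 2.91, in CC023, with distant ones.

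Which strains stood out depended on those libraries. Against the unweighted mean of the other strains (limma, adjusted over all strains and genes), 69 member and strain pairs were higher (4.42%) and 10 lower (0.641%), where 7.72% and 7.09% of all gene and strain pairs were. CC015 had 27 members higher (10.9% of all genes) and CC038 had 24 (16.0% of all genes). In CC015 Ccnb1 averaged 15.0 ± 9.98 scaled TPM (SD, n = 4) and was 1.31 log2 above the other strains (SE 0.366, adjusted p = 0.00875). Its libraries were at 5.36, 7.37, 23.2 and 24.0, so the mean fell where there was no library. Without replicate 2 of CC015, 1 member was called there, and without replicate 1 of CC038, its block A library, 1 was called in CC038.

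Leaving out block A changed the picture of the strains. In that fit (limma) 18 members were higher in CC038 (16.9% of all genes), 27 in CC041 (13.6%), 25 in CC074 (9.78%) and 10 in CC004 (12.4%), and 9 were lower in CC019 (6.37%). The CC041 count includes its block B libraries, with mitotic means of 3.66 and 3.56, while its other libraries were at 1.71 and 1.13. With all libraries 1 member was called higher in CC041. With block A left out, 38 of 40 members differed between strains (limma, 85.5% of all genes), in a smaller set of 83 libraries of 36 strains. Without block B as well, 39 of 40 did (85.8%), with a median share of variance of 0.609.

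CC074 was high without any such library. With all libraries in the fit it had 6 members higher than the other strains (8.05% of all genes): Pcna, Mcm2, Mcm3, Mcm6, E2f1 and E2f8, each a replication or G1/S gene. Pcna was 56.6 and 55.6 scaled TPM in its libraries, 0.55 log2 above the other strains (SE 0.131, adjusted p = 0.00193, limma). E2f1 was 6.68 and 5.89, or 0.72 above (SE 0.228, adjusted p = 0.0217). Both CC074 libraries had mitotic means of 2.32 and 2.77, and their title numbers are consecutive.

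At the other end were CC019, CC037 and CC051. CC019 had the lowest strain mean of the mitotic members at 0.97, with libraries at 0.98 and 0.95, and CC037 had 1.01, with 1.09 and 0.92. Top2a was 5.02 and 5.25 scaled TPM in CC019 and 5.42 and 5.15 in CC037. CC051 averaged 1.10 from unlike libraries, at 1.51 and 0.69. In CC019 only Ccne1 passed the test against the other strains, at 1.17 ± 0.103 (SD, n = 2) and 0.67 log2 lower (limma adjusted p = 0.00804).

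Ranges between strain means were largest in Ccnb1, Ccnb2, Birc5 and Cdc20, at 2.51, 2.42, 2.38 and 2.25 log2. Strains at the ends of a range, here and below, are those with the lowest and highest mean log2 among the strains tested. Birc5 ran from 1.77 ± 0.0619 scaled TPM in CC019 (SD, n = 2) to 14.2 ± 9.90 in CC015 (n = 4). Ccnb2 ran from 1.38 ± 0.0975 in CC019 to 10.9 ± 6.82 in CC038 (n = 4), and Cdc20 from 2.03 ± 0.192 in CC019 to 17.4 ± 18.7 in CC023 (n = 2). In the high strains the SD was large beside the mean, since their libraries were widely split. The smallest ranges were those of Mcm4 (0.84, from 4.76 ± 0.0382 in CC045 to 9.39 ± 4.25 in CC023) and Pcna (0.88, from 30.4 ± 3.55 in CC005 to 56.1 ± 0.709 in CC074).

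Mcm6, a helicase subunit, followed strain more than any other member, with a share of variance of 0.539 (adjusted p = 5.27e-06, limma). It was 3.28 and 2.94 scaled TPM in CC005, 13.6 and 18.7 in CC028, and 13.4 and 14.6 in CC074. In CC028 the library outside block A had a mitotic mean of only 1.25 and still had 13.6. Against the other strains Mcm6 was higher in CC028 (1.06 log2, SE 0.271, adjusted p = 0.00381), CC074, CC004 and CC015, and lower in CC005 (-1.18, SE 0.271, adjusted p = 0.00116), CC013, CC025, CC040 and CC061 (limma). It kept its strain call in the 13 strains with distant numbers and no library of either block (adjusted p = 0.0188).

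Mcm7 followed a different order of strains. Its 3 CC075 libraries were at 17.8, 17.1 and 17.1 scaled TPM, 0.55 log2 above the other strains (SE 0.128, adjusted p = 0.00146, limma), and both CC043 libraries were at 7.56 and 7.53, 0.63 lower (adjusted p = 0.00278). These are the tested strains with the highest and lowest Mcm7 means, so their lack of overlap is only a description. Without CC043 replicate 1, which takes CC043 out of the test, the adjusted p of Mcm7 over strains went from 0.00977 to 0.0613. In CC023 and CC028 the block A libraries were both at 17.8 and the others at 7.32 and 7.40. Those 2 low libraries lie within 5 title numbers of a CC043 library. Strain and title number thus cannot be told apart for the low Mcm7 of CC043. Among the strains with distant numbers its share of variance was -0.407 (adjusted p = 0.965, limma), and without block A it was 0.671 (adjusted p = 7.06e-08, limma).

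**Figure D4:**
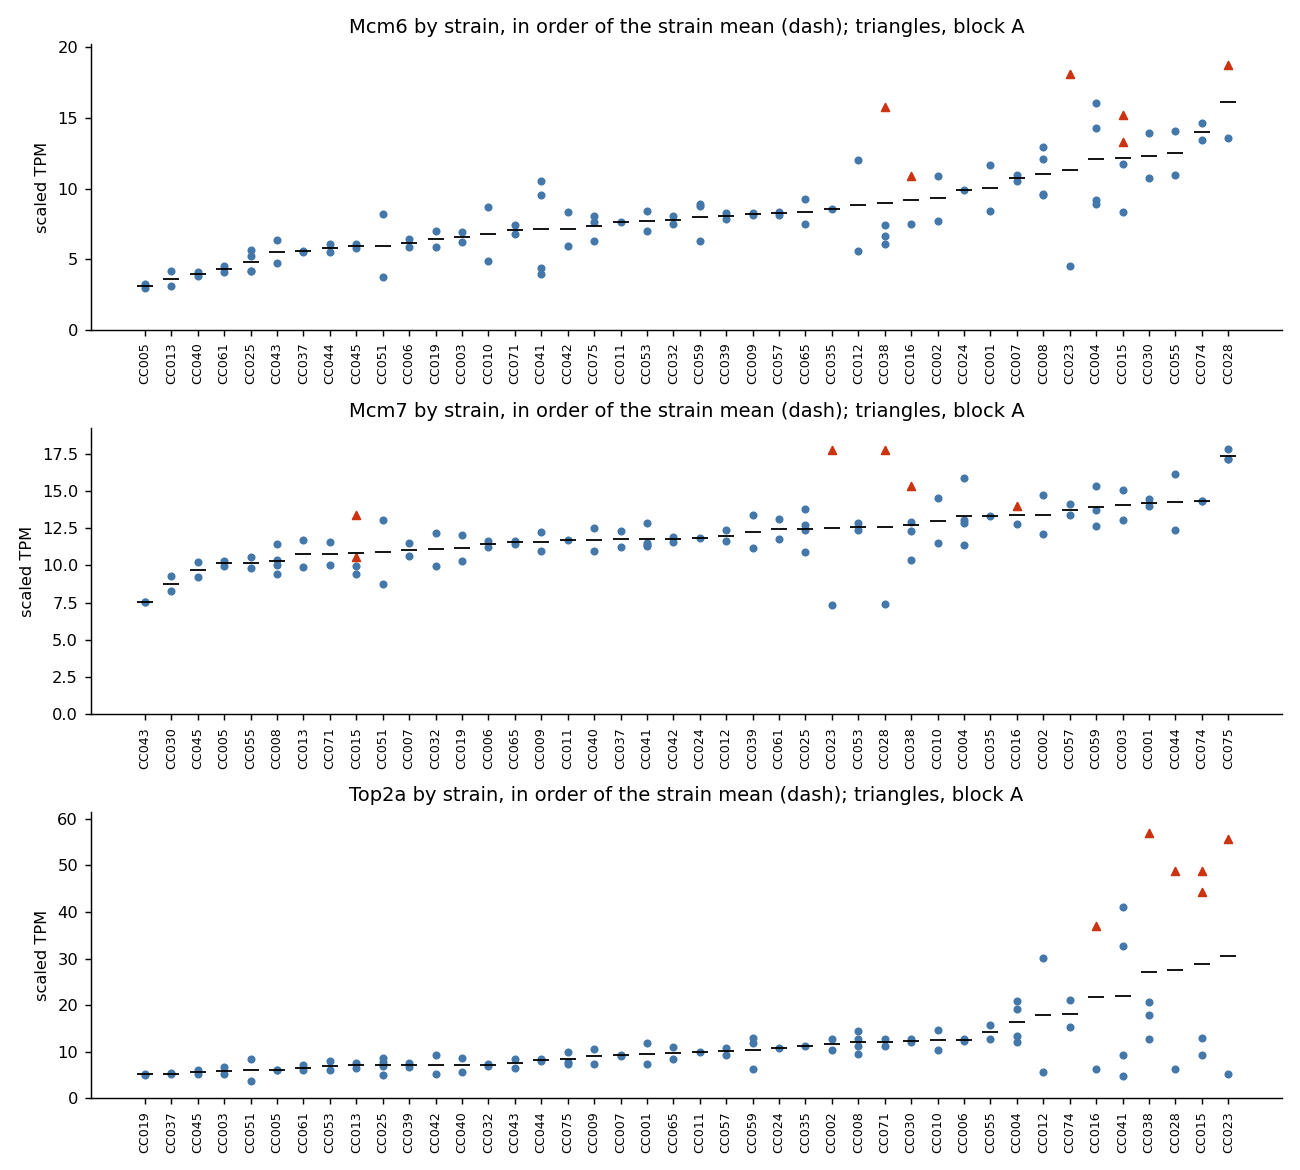
Scaled TPM of Mcm6, Mcm7 and Top2a in each library (points) of 42 strains, in order of the strain mean (dashes); triangles are block A. Mcm6 strain means run from 3.11 in CC005 to 16.1 in CC028, with libraries far apart in some strains such as CC023, and the highest Top2a means average widely split libraries.

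The mitotic members varied as a block. Over the 42 strain means, the Pearson r of each mitotic member with the mean of the other members was 0.894 (Ube2c) to 0.980 (Top2a), and over deviations of 92 libraries from their strain mean it was 0.915 to 0.988. These points share libraries and scaling. The mean of the other members holds more mitotic than replication members, which can raise r for the mitotic ones. No r was computed without blocks A and B. Replication members ran from 0.0659 to 0.892 over strains. Cdc6, Gins2, Rrm2 and E2f8 were at 0.872 to 0.892, and Mcm7 (0.0659), E2f1 (0.269), Cdt1 (0.365) and Mcm2 (0.470) stood lowest. Within strains Mcm7 and Mcm2 followed the other members, at 0.722 and 0.851, and Cdt1 did not, at -0.00692. The mitotic and replication means had an r of 0.903 over strains and 0.941 within them.

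**Figure D5:**
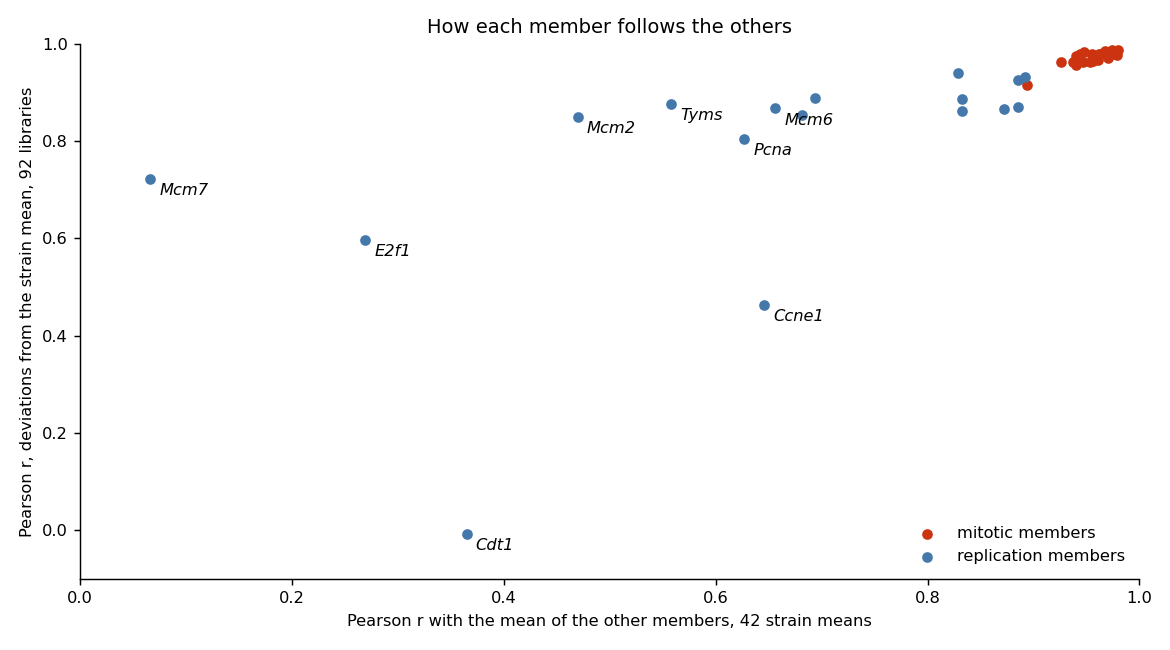
Pearson r of each member with the mean of the other members over 42 strain means (horizontal) and over deviations of 92 libraries from their strain means (vertical). Mitotic members (red) sit at 0.894 or above on both axes, while Mcm7 lies at 0.0659 and 0.722 and Cdt1 at 0.365 and -0.00692.

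Genes outside the chosen and pathway lists with the most similar strain pattern were Shcbp1 (r = 0.970 with the mean z-score of the members, 42 strains), Pimreg (0.963), Tacc3 (0.960), Depdc1a (0.960) and Sgo2a (0.958). Cenpi, Ercc6l, Kifc1, Hist1h1b and Knl1 followed at 0.957 to 0.951. Replication-dependent histone genes are copied into RNA in S phase and mostly lack a poly(A) tail, and the libraries here were made from total RNA. The 62 histone genes summed to between 457 and 5367 scaled TPM, with a median of 1391. The sum was 2898 to 5367 in block A and 753 to 1970 in the other libraries of those strains, which did not overlap. Its r with the mitotic mean was 0.693 over 42 strains and 0.897 within strains.

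Of 36 further mitosis genes, 12 differed between strains (limma, 81.6% of all genes), and 36 of 36 were above every other library of the strain in the 5 block A strains (10.7% of all genes). Cenpa, the centromeric histone, ranged over 2.51 log2 between strains, Cdca3 over 2.16 and Hmmr over 2.02. Pttg1, or securin, had the largest range of the list (2.66) and a strain order of its own: it was highest in CC037, at 15.5 ± 2.79 scaled TPM (SD, n = 2), lowest in CC019, at 2.05 ± 0.585 (n = 2), and its r with the mitotic mean over strains was 0.00730. Its share of variance was 0.605 (adjusted p = 2.21e-07, limma), although it too was above in 5 of 5 strains. CC037 was thus at the low end for most mitotic members and at the high end for securin.

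Of 36 further replication genes, 18 differed between strains (limma, 81.6% of all genes) and 28 were above in 5 of 5 strains (10.7% of all genes). The largest ranges were those of Tk1, thymidine kinase (2.12), Uhrf1 (1.60), Chaf1a (1.52) and Prim2 (1.40). Tk1 ran from 2.01 ± 1.48 scaled TPM in CC051 to 9.52 ± 1.93 in CC074 (SD, n = 2 each), and its strain effect did not pass (adjusted p = 0.0633, limma). Prim2, a primase subunit, did (adjusted p = 1.20e-06).

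A further list held regulators of cell cycle entry and exit: CDK inhibitors, D cyclins, CDK genes of G1 and S phase, pocket proteins, repressor E2Fs, MuvB subunits, Fzr1 and Gmnn. Of its 24 tested genes, 22 differed between strains (limma, 81.6% of all genes), with a median share of variance of 0.456, beside 0.472 for all genes. In block A 7 were above in 5 of 5 strains (10.7% of all genes). Cdkn2a, which encodes p16 and p19ARF, was 4.03 ± 1.26 scaled TPM in CC008 (SD, n = 4) and 18.3 ± 3.16 in CC057 (n = 2). Cdkn1a, or p21, was 18.8 ± 6.39 in CC038 (n = 4) and 68.2 ± 11.9 in CC013 (n = 2), while Cdkn2c had the reverse order, with 14.3 ± 2.45 in CC038 (n = 4) and 3.00 ± 0.465 in CC013 (n = 2). Cdkn1c, an imprinted inhibitor, ran from 16.6 ± 11.8 in CC043 to 75.7 ± 3.40 in CC044 (n = 2 each). The r of these 4 genes with the mitotic mean over strains was 0.0874 for Cdkn1c, -0.0878 for Cdkn2a, 0.471 for Cdkn2c and -0.289 for Cdkn1a.

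Of 14 targets of p53, 13 differed between strains (limma, 81.6% of all genes), with a median share of variance of 0.604, beside 0.472 for all genes. Btg2, an antiproliferative gene, was 4.89 ± 0.979 scaled TPM in CC007 and 54.7 ± 3.62 in CC045 (SD, n = 2 each), and Gdf15, Perp and Aen ranged over 3.38, 2.63 and 2.35 log2. In block A, 1 of 14 was above (Gdf15, 10.7% of all genes) and 2 were below (Zmat3 and Trp53inp1, 8.82% of all genes) in 5 of 5 strains, which is near the background.

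The design also asks whether members track the maturity of the cultures. Over the 42 strain means, with the osteoblast score taken as the mean z-score of the 15 markers, 0 members fell with the score (limma, 13.1% of all genes) and 1 rose, Mcm7 (slope 0.12 log2 per unit, adjusted p = 0.0242, 11.1% of all genes), and 4 members had an unadjusted p under 0.05. With the macrophage score, 4 members rose (limma, 13.2% of all genes): Pcna (slope 0.12, adjusted p = 0.000619), Cdt1 (0.0113), Mcm6 (0.0202) and Mki67 (0.0296). None fell (10.9%), and 8 members had an unadjusted p under 0.05. These shares of the members are at or below those of all genes. Within strains, 0 members rose (9.82%) or fell (13.3%) with the osteoblast score, and with the macrophage score 1 fell (Tyms, adjusted p = 0.0412, 11.1%) and 0 rose (13.1%), where 6 and 10 members had an unadjusted p under 0.05.

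Without blocks A and B, again chosen after the values were seen, the relation over strains differed. There 26 members fell with the osteoblast score (limma, 13.8% of all genes), 21 of them mitotic, and 23 rose with the macrophage score (13.2% of all genes), 20 of them mitotic. The median slope of the mitotic members on the osteoblast score was -0.25 log2 per unit there and -0.09 in all libraries. Without block A alone, 6 members fell with the osteoblast score (13.0%) and 4 rose with the macrophage score (13.0%). With both scores in the model and both blocks left out, 8 fell with the osteoblast score and 5 rose with the macrophage score. The share of all genes is not given for that fit, so whether these counts exceed it cannot be told. The scores were not independent of each other. With all libraries, 11 of 15 macrophage markers fell with the osteoblast score over strains and 0 rose (limma, 13.1% and 11.1% of all genes). CC071 and CC030 had the lowest osteoblast scores (-2.23 and -2.10) and the highest macrophage scores (1.56 and 2.02). How far the calls rest on these strains was not tested.

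Over all 39 strains the macrophage markers had a median share of variance of 0.841 and the osteoblast markers 0.541. The members had 0.215 and all genes 0.472. Among strains with close title numbers the members had 0.811, and the value of the marker lists there is not given. Whether the difference between lists exceeds chance was not tested.

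A CC030 sample was sequenced 2 times, which shows the error of the sequencing run but not of culture or library preparation. The 2 runs differed by a median of 0.134 log2 over the 40 members, at most 0.402, and by 0.102 over all tested genes. Their mitotic means were 2.23 and 2.25, beside 2.11 in the other CC030 library. Mki67 was 6.22 and 5.18 scaled TPM in the runs and 3.82 in the other library.

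Some members share transcript sequence with other genes, and how the deposited values divide such reads is stated in no source used here. Of the 31-base stretches of Gins2, 66.2% also occur in other genes, most in the overlapping gene Gse1. The share was 33.4% for Mcm7, 27.8% for Ccnb1, 26.7% for Cdc20 and 23.3% for Pcna, with most of it in Gm5487, Ccnb1-ps, Gm7856 and Pcna-ps2. It was 26.7% for Kif20a and 25.3% for Ube2c, with most of it in Cdc23 and Tnnc2. Values of these genes are uncertain for that reason, by an amount that was not tested.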

How the data were processed

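The authors deposited 1 table of TPM values per transcript for 96 samples, each column summing to 1000000. The submitters' processing notes name Bowtie and the build mm9; how reads were divided among transcripts is stated in no source used here. Of 94545 transcripts, 91225 matched the GENCODE annotation by identifier and were summed into genes; 3320 did not. A median of 98.2% of TPM was matched. Values were divided by a trimmed-mean scaling factor per library (0.772 to 1.33) and tested as log2(scaled TPM + 0.5), which understates fold changes of low genes, for genes at 0.5 or above in 2 or more libraries. The 2 runs of 1 CC030 sample were averaged, giving 95 libraries. Replicate numbers follow accession order and pair nothing. limma 3.58.1 in R 4.3.3 (trend, Benjamini-Hochberg, 0.05) gave all tests and was tested on simulated data. The members and lists were chosen with earlier results of these data known. Named genes were 12 chosen members, those with the 4 largest and 2 smallest ranges, the 4 widest of each pathway list and the 10 most similar others; Mcm6, Mcm7, Cdt1 and others outside the rule were named after their values were seen, as were the title-number ranges. No coordinates of the files are used, since the builds differ. Alternatives changed the pseudocount, filter, scaling, weights, covariates and libraries.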

Additional observations from a re-analysis of the deposited data

Results flagged for a closer look

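In strains with 4 libraries, 84 groups (14 measures in 6 strains) were checked for a library far from the other 3, and 3 stood out; chance gives about 1 in 20 groups. CC008 replicate 2 had a mitotic mean of 1.73 log2, below the other 3 at 2.07 to 2.14. CC038 replicate 1, of block A, had a replication mean of 3.31, above the other 3 at 2.46 to 2.60. The same library had log2 Mcm2 of 3.37, above the others at 2.40 to 2.53.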

How the results depend on the processing

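No paired analysis was possible because the labels give no replicate numbers. Changing the pseudocount or the scaling to median of ratios moved no count of members that differed between strains (22) past 1.5 times, but 12 were called without the filter, 37 on the deposited TPM, 40 with library weights, 39 among strains with close title numbers, 0 among distant ones, 10 among distant ones outside blocks A and B, 38 without block A and 39 without both blocks. The median share of variance (0.215) became 0.811 among close numbers, 0.376 among distant ones outside the blocks and 0.609 without both; among distant ones it turned negative, at -0.223 (mitotic -0.239, replication -0.206). Calls of a member in a strain (4.42% of pairs higher, 0.641% lower) became 1.60% lower on deposited TPM, 2.64% lower without block A, and 12.4% higher and 9.43% lower without both. Over strains, calls lower with the osteoblast score (0) became 1 with both scores, 6 without block A, 26 without both blocks and 8 with both scores and no blocks; the 1 higher became 0 under those 4 settings and on deposited TPM. Calls higher with the macrophage score (4) became 7 on deposited TPM and 23 without both blocks. Within strains, the 1 call lower with the macrophage score became 0 without the filter, on deposited TPM, with both scores and without blocks, 1 was higher on deposited TPM, and osteoblast calls (0) became 1 higher by median of ratios or with both scores, with or without blocks, 2 lower without both blocks and 1 lower with both scores and no blocks. Leaving out 1 library in turn gave 16 (without CC037 replicate 1) to 33 (without CC041 replicate 4) strain effects, a share of 0.185 to 0.266, 2.76% (without CC015 replicate 2) to 5.64% of pairs higher and 0.577% to 0.987% (without CC012 replicate 1) lower, 3 to 5 macrophage and 0 to 2 osteoblast calls higher, 0 to 3 osteoblast calls lower over strains, and within strains 0 to 5 macrophage calls lower and 0 to 3 osteoblast calls higher. The cause of these moves was not tested. The share of all genes called is not given without the filter, on deposited TPM, with library weights or with both scores. Counts of members under those settings therefore have no background here. Low values limit E2f8, Ttk, Plk1 and Cdc6, and library depth is unknown.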
